A study of Danio rerio with 12 samples.

Results

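The 9 genes described here serve the urea cycle and arginine breakdown (*cps1*, *otc*, *ass1*, *arg1*, *arg2*, *nags*) or de novo pyrimidine synthesis (*cad*, *dhodh*, *umps*). They were picked out of 25607 zebrafish genes by gene name, with *cps1* as ENSDARG00000020028. The set was selected on the day 3 difference between JQ1 and DMSO, in which *cps1* was among the genes with the largest falls, so the day 3 values of these genes are given as a description and support nothing. Tumor cells were taken from zebrafish that carried human *IRF4* and mCherry, both under the zebrafish *lck* promoter, which is active in T cells. After a lymphoma had developed, each fish was kept in its own tank with 4 µM JQ1 or with the solvent DMSO as vehicle. JQ1 is a small molecule that blocks bromodomain proteins of the BET family. mCherry-positive cells were then sorted by flow cytometry and their RNA was sequenced from 3 animals for each of 4 groups: JQ1 day 3, DMSO day 3, JQ1 day 1 and DMSO day 1. All 12 libraries came from transgenic tumor cells, so no group was free of the transgenes. The fish used for bulk RNA-seq were 10 months old. The drug-treated fish that the study imaged are given as p53 wt/wt, and no separate p53 genotype is given for the sequenced ones in the sources used here.

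Carbamoyl phosphate stands at the head of both routes. In the urea cycle, the mitochondrial enzyme encoded by *cps1* makes it, *otc* joins it to ornithine, *ass1* and *asl* turn the product into arginine, and arginase releases urea, while *nags* makes the N-acetylglutamate that the first enzyme needs. In ray-finned fishes the mitochondrial enzyme takes its nitrogen from glutamine rather than from free ammonia, and in mammals *CPS1*, *OTC* and *ASS1* are best known from the liver. The pyrimidine route makes its own carbamoyl phosphate in the cytosol on the *cad* protein, which also carries the next pair of activities, *dhodh* oxidises dihydroorotate at the mitochondrial inner membrane, and *umps* completes UMP, the parent of all pyrimidine nucleotides.

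The libraries held between 8176139 and 12771912 counts in zebrafish genes, so 3 counts corresponded to between 0.235 and 0.367 CPM (counts scaled to a library of 1000000). Levels of single genes below are CPM scaled by the TMM method, which sets libraries against each other by the bulk of their genes. Summed levels of markers and of the transgenes are CPM without that scaling. The summed level of 8 T-cell markers was 1597 to 3878 CPM in JQ1 day 3 libraries, against 4494 to 5308 CPM in DMSO day 3 libraries, and 3488 to 4411 CPM in JQ1 day 1 libraries, against 4126 to 6408 CPM in DMSO day 1 libraries. *cd247* had no counts in any library, and the other 7 T-cell markers were present in all 12. At day 3, 6 of these 7 had a log2 fold change below 0 and 2 were called lower (adjusted p below 0.05, edgeR). *il7r* had 10691, 3985 and 7963 counts in JQ1 day 3 libraries, against 9147, 4808 and 3021 in DMSO day 3 libraries. The library of JQ1 day 3 replicate 2 stood apart, with 787 CPM of *IRF4* and mCherry together, against 3962 to 11530 CPM in the other 11, and with the most macrophage marker RNA of all libraries (4504 CPM). DMSO day 1 replicate 3 also stood apart from its group, with 1518 CPM of macrophage markers, against 87.2 and 143 CPM in the other two. Germ cell markers, 8 genes that include *piwil1*, *ddx4* and *dazl*, summed to 171 to 1401 CPM in JQ1 day 3 libraries, against 23.0 to 46.2 CPM in DMSO day 3 libraries, and to 232 to 507 CPM in JQ1 day 1 libraries, against 26.8 to 34.5 CPM in DMSO day 1 libraries. Most of the sum in each DMSO library came from *sycp1*, with 196 to 395 counts, against 2936, 764 and 121 in JQ1 day 3 libraries. *piwil1* had 2 to 77 counts in DMSO libraries and 802 to 8225 in JQ1 libraries. At day 3, 6 of the 8 germ cell markers passed an adjusted p of 0.05 (edgeR), all higher, with a median log2 fold change of 5.88. Of all genes tested at day 3, 15.3% were called higher and 9.91% lower. These shares are the background for the day 3 marker counts given here and below. At day 1 it was 1 of 8, also higher, where 0.0443% of all genes passed. The day 1 median was 5.6, and 7 of the 8 had an unadjusted p below 0.05 (edgeR), all higher, as had 3536 of 15813 genes in either direction. The part of such cells in the differences between JQ1 and DMSO libraries was not tested. In bulk RNA, fewer cells of a type cannot be told apart from less RNA of that gene in each cell.

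*cps1* RNA was near the detection limit in tumor cells after 3 days of JQ1 and plentiful after 3 days of DMSO. In replicates 1, 2 and 3 it had 0.534, 1.13 and 1.58 CPM in JQ1 day 3 cells, from 7, 18 and 20 counts, against 106, 184 and 35.5 CPM in DMSO day 3 cells, from 1233, 1690 and 260 counts. The groups did not overlap, though how many of all genes had groups apart at day 3 was not counted. The means were 1.08 ± 0.52 CPM in JQ1 day 3 cells and 109 ± 74.4 CPM in DMSO day 3 cells (SD, n = 3 each), so the mean was 101-fold lower with JQ1. The fitted log2 fold change was −6.58 ± 0.76 (SE), within the lowest 0.0184% of the 16271 genes fitted.

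At day 1 *cps1* was low with JQ1 and varied widely among the DMSO libraries. The libraries had 2.06, 0.0868 and 0.701 CPM in JQ1 day 1 cells, from 21, 1 and 8 counts, against 19.5, 4.03 and 0.22 CPM in DMSO day 1 cells, from 224, 42 and 3 counts. The ranges overlapped, because the third DMSO library was below 2 of the 3 JQ1 libraries. The log2 fold change was −3.04 ± 1.50 (SE) and did not pass the threshold (adjusted p = 0.278, edgeR, adjusted by the Benjamini-Hochberg method for 15813 genes). When libraries were scaled by their ERCC spike-ins, which had been added according to cell number, the day 1 difference was −4.30 on the log2 scale and passed (adjusted p = 0.00325, edgeR). Without DMSO day 1 replicate 1, the library with the most *cps1* in its group, it was −1.16 (adjusted p = 0.733, edgeR).

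The 4 group means of *cps1* ran 0.95 CPM in JQ1 day 1, 1.08 CPM in JQ1 day 3, 7.90 CPM in DMSO day 1 and 109 CPM in DMSO day 3 cells. The lower 3 of these overlapped with their neighbours, and DMSO day 3 alone lay clear of every other group. Each DMSO day 3 library (35.5 to 184 CPM) was above each DMSO day 1 library (0.22 to 19.5 CPM), a log2 fold change of 3.76 ± 1.28 (SE). This comparison contains the DMSO day 3 libraries on which the gene was chosen. It did not pass the threshold in edgeR (adjusted p = 0.904), where none of the 14106 genes fitted did (0% called, 701 genes at an unadjusted p below 0.05), and it did in DESeq2 with size factors from the genes (adjusted p = 0.0427, 140 genes called). The difference between the JQ1 effects at day 3 and at day 1 was −3.58 ± 1.69 (SE) for *cps1* and did not pass either (adjusted p = 0.711, edgeR), in a test where 0% of 18116 genes were called, 1260 genes had an unadjusted p below 0.05 and DESeq2 called 36.

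**Figure D1:**
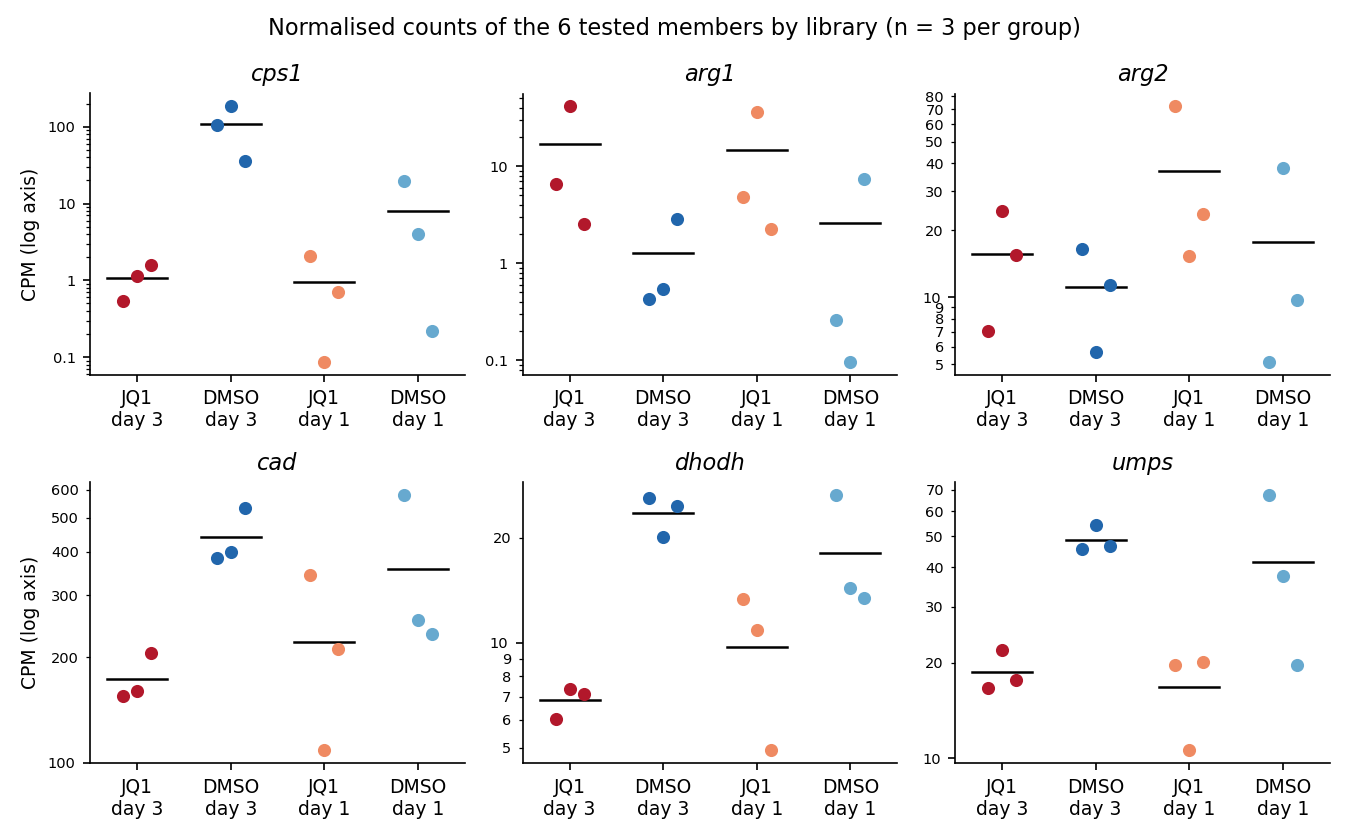
TMM-normalised CPM (log axis) of the 6 members that could be tested, 1 point for each library, with replicates 1, 2 and 3 from left to right in a group and a line at the mean of the 3. For *cps1* the DMSO day 3 libraries (35.5 to 184 CPM) lie above all other libraries, and for *cad*, *dhodh* and *umps* the JQ1 day 3 libraries lie below the DMSO day 3 libraries.

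The same day 3 counts of *cps1* can be set against transcripts of the tumor cells, which describes again the values that chose the gene and is no further evidence of the difference. They were 0.0153%, 0.0883% and 0.0618% of the summed T-cell marker counts in JQ1 day 3 libraries, against 2.15%, 4.05% and 0.599% in DMSO day 3 libraries. Relative to the counts of the transgenes they were 0.00942%, 0.179% and 0.0387% in JQ1 day 3 libraries, against 0.86%, 2.68% and 0.412% in DMSO day 3 libraries. Neither pair of ranges overlapped. The highest JQ1 value on both scales belonged to replicate 2, the library with the fewest transgene counts, and without that library the fitted log2 fold change was −6.63. Per 10000 ERCC counts, *cps1* had 0.707 counts on average in JQ1 day 3 cells and 94.1 in DMSO day 3 cells.

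The partner genes of the urea cycle were scarce or unread. *ass1*, which encodes argininosuccinate synthase, and *nags* had 0 counts in all 12 libraries, which allows at most 0.235 to 0.367 CPM in a library for counting error alone. The deposited counts come from reads that mapped to 1 place, so a gene whose sequence is repeated in the genome can stand at 0 while it is transcribed. *otc*, ornithine transcarbamylase, had 3, 14 and 3 counts in JQ1 day 3 libraries, against 0, 1 and 1 in DMSO day 3 libraries, and 8, 15 and 0 counts in JQ1 day 1 libraries, against 0, 6 and 0 in DMSO day 1 libraries. With at most 15 counts in any library it did not pass the filter on low counts and was not tested. The highest level of any of these 3 genes in any library was 1.30 CPM, for *otc* in JQ1 day 1 replicate 2.

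The 2 arginases split arginine into ornithine and urea, and neither passed the threshold on either day. *arg1*, the cytosolic enzyme, had 6.56, 41.5 and 2.53 CPM in JQ1 day 3 libraries, against 0.431, 0.545 and 2.87 CPM in DMSO day 3 libraries. In day 1 cells it had 4.81, 36.7 and 2.28 CPM with JQ1, against 0.261, 0.096 and 7.40 CPM with DMSO. The groups overlapped on both days, and the highest value on each day was JQ1 replicate 2. The log2 fold change was 3.83 ± 1.27 (SE) at day 3 and 2.48 ± 1.57 (SE) at day 1, where the adjusted p was 0.390 (edgeR), and it was 1.89 at day 3 and 0.42 at day 1 without replicate 2 of that day's JQ1 group. At day 1 it was 6.25 without DMSO replicate 3, and it remained short of the threshold (adjusted p = 0.0516, edgeR). The JQ1 libraries with the most *arg1*, replicate 2 of each day, also had the most macrophage, kidney tubule and muscle marker RNA of their groups. At day 3 replicate 2 had the most germ cell marker RNA as well, so no single cell type is picked out. Macrophage markers summed to 784, 4504 and 2271 CPM in JQ1 day 3 libraries, against 175, 376 and 58.8 CPM in DMSO day 3 libraries, and 5 of the 13 macrophage genes tested passed the threshold, all higher. Kidney tubule markers summed to 389, 1485 and 425 CPM in JQ1 day 3 libraries, against 274, 475 and 244 CPM in DMSO day 3 libraries, with 6 of 7 genes past the threshold, all higher. Most of this sum in each day 3 library came from the *slc20a1* copy ENSDARG00000010641. It had 2887, 11109 and 3878 counts with JQ1, against 3281, 4297 and 1861 with DMSO. The other genes of the list had 14 to 3210 counts in JQ1 day 3 libraries and at most 56 in DMSO day 3 libraries. At day 1 the macrophage markers summed to 223, 1083 and 930 CPM in JQ1 libraries, against 87.2, 143 and 1518 CPM in DMSO libraries. The part of these cells in the *arg1* level was not tested.

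*arg2*, the mitochondrial arginase, had 7.02, 24.4 and 15.6 CPM in JQ1 day 3 libraries, against 16.5, 5.67 and 11.4 CPM in DMSO day 3 libraries. At day 1 it had 72.2, 15.3 and 23.6 CPM with JQ1, against 5.13, 38.3 and 9.75 CPM with DMSO. The groups overlapped on both days. The log2 fold change was 0.55 ± 0.57 (SE) at day 3 and 1.08 ± 0.84 (SE) at day 1 (adjusted p = 0.480, edgeR), and at day 1 it turned to −0.052 with ERCC scaling. Without JQ1 day 3 replicate 2 the day 3 value was 0.052.

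The 3 genes of de novo pyrimidine synthesis were lower in CPM with JQ1 at day 3, by a similar fold and with little spread. *cad* had 155, 161 and 205 CPM in JQ1 day 3 libraries, against 385, 400 and 534 CPM in DMSO day 3 libraries, and its log2 fold change was −1.28 ± 0.23 (SE). *dhodh* had 6.03, 7.38 and 7.10 CPM in JQ1 day 3 libraries, against 26.1, 20.2 and 24.6 CPM in DMSO day 3 libraries, a log2 fold change of −1.73 ± 0.28 (SE). *umps* had 16.6, 21.9 and 17.7 CPM in JQ1 day 3 libraries, against 45.6, 54.4 and 46.6 CPM in DMSO day 3 libraries, a log2 fold change of −1.32 ± 0.22 (SE). For none of the 3 did the groups overlap in CPM or per ERCC count. The share of all genes with groups apart at day 3 was not counted, and nothing is read from these gaps. Relative to T-cell marker counts or transgene counts, the day 3 groups of all 3 genes overlapped. *cad* was 4.45% to 12.6% of the T-cell marker counts in JQ1 day 3 libraries, against 7.79% to 9.0% in DMSO day 3 libraries. The means in CPM were 2.53-fold lower for *cad*, 3.46-fold lower for *dhodh* and 2.61-fold lower for *umps* in JQ1 day 3 cells, against 101-fold for *cps1*.

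With *cps1*, these made 4 of the 6 tested members past the threshold at day 3, all lower, in a comparison where 9.91% of all genes tested were called lower and 15.3% higher (1613 and 2491 of 16271, edgeR). The members were chosen with this contrast in view, and nothing is read from that count. All calls of the day 3 comparison ended when any 1 of the DMSO day 3 libraries was left out, and 747 genes, with 3 members among them, remained past the threshold without JQ1 day 3 replicate 2.

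At day 1, a comparison that did not enter the choice, the pyrimidine genes varied more within a group than at day 3. *umps* had 19.6, 10.6 and 20.2 CPM in JQ1 day 1 libraries, against 67.6, 37.6 and 19.7 CPM in DMSO day 1 libraries, and its mean of 16.8 CPM in JQ1 day 1 cells was the lowest of the 4 group means. *dhodh* had 13.4, 10.9 and 4.91 CPM in JQ1 day 1 libraries, against 26.6, 14.4 and 13.4 CPM in DMSO day 1 libraries, with the highest JQ1 library just under the lowest DMSO library (13.35 and 13.41 CPM). *cad* had 343, 109 and 212 CPM in JQ1 day 1 libraries, against 581, 255 and 233 CPM in DMSO day 1 libraries. This narrow gap of *dhodh* depended on the scale. Relative to T-cell marker counts or transgene counts its day 1 groups overlapped, and per ERCC count the groups of *cad*, *dhodh* and *umps* were all apart. Relative to transgene counts the day 1 groups of *umps* were apart as well. How many of all genes had groups apart at day 1 was not counted, and nothing is read from these gaps.

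The log2 fold changes at day 1 were −1.29 ± 0.49 for *umps*, −0.89 ± 0.48 for *dhodh* and −0.67 ± 0.50 for *cad* (SE), with adjusted p values of 0.180, 0.316 and 0.462 (edgeR). None of the 6 tested members passed the threshold at day 1 in edgeR or in DESeq2 with size factors from the genes, and 1 of them, *umps*, had an unadjusted p below 0.05 in edgeR. In all, 0.0443% of 15813 genes were called at day 1 (7 genes, all higher), and 3536 had an unadjusted p below 0.05. *umps* passed the threshold when DMSO day 1 replicate 3 was left out (log2 fold change −1.64, adjusted p = 0.0493, edgeR). Without that library 1191 of all genes were called higher and 400 lower, and nothing is read from the *umps* call.

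**Figure D2:**
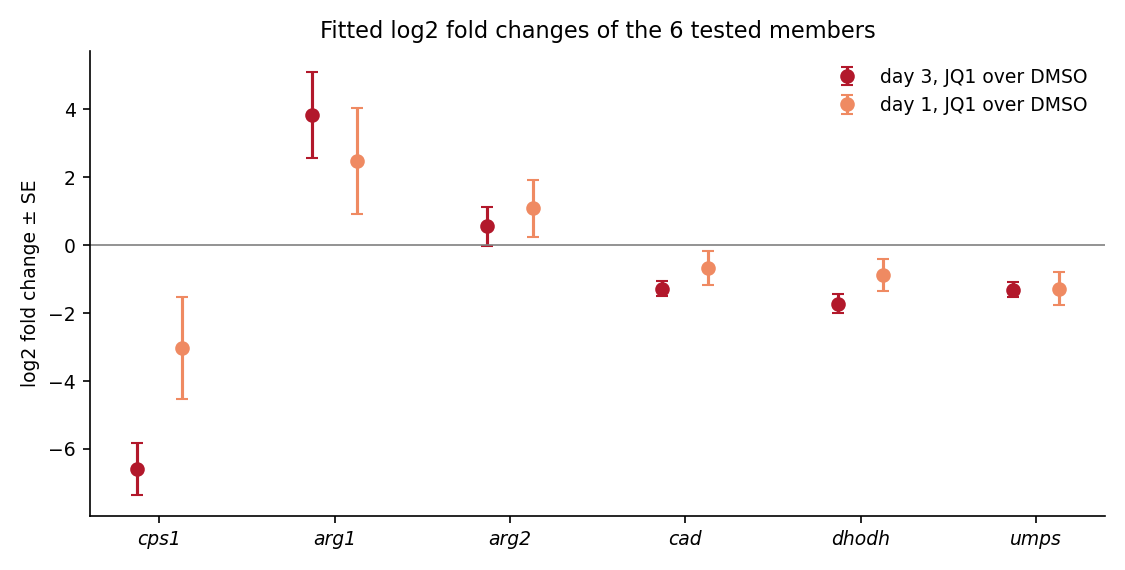
Fitted log2 fold change of JQ1 over DMSO for the 6 tested members (points) with the standard error of the fit (bars), at day 3 and at day 1, from 3 libraries a group. *cps1* has the lowest value on both days (−6.58 and −3.04), the 3 pyrimidine genes lie below 0 on both days, and the arginases lie above 0 without having passed the threshold.

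Among DMSO cells alone, the CPM levels of the pyrimidine genes did not separate the days. *cad* averaged 439 CPM in DMSO day 3 and 356 CPM in DMSO day 1 cells, *dhodh* averaged 23.6 CPM in DMSO day 3 and 18.1 CPM in DMSO day 1 cells, and *umps* averaged 48.9 CPM in DMSO day 3 and 41.6 CPM in DMSO day 1 cells. The CPM ranges overlapped in each case, and the log2 fold changes were 0.25, 0.32 and 0.18. The spread among DMSO day 1 libraries was wide for all 3 genes. In JQ1 cells the CPM ranges of day 3 and day 1 also overlapped for *cps1*, *cad*, *dhodh* and *umps*. Relative to T-cell marker counts, *dhodh* was apart between the DMSO days, at 0.415% to 0.529% at day 3 and 0.252% to 0.406% at day 1. Relative to transgene counts, *umps* was apart between the JQ1 days, at 0.29% to 3.48% at day 3 and 0.15% to 0.27% at day 1. Nothing is read from these gaps. 

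The size of these differences depended on the quantity that set the scale of each library. The ERCC scale moved the all-gene median (log2 fold change) to −0.38 at day 3, where it was 0.047 with TMM, and to −1.51 at day 1, where it was 0.0040 with TMM. On that scale the fitted values at day 3 were −7.03 for *cps1*, −1.71 for *cad*, −2.16 for *dhodh* and −1.72 for *umps*. At day 1 they were −4.30 for *cps1*, −2.01 for *cad*, −2.26 for *dhodh* and −2.79 for *umps*, and all 4 passed the threshold (adjusted p = 0.00325, 0.0272, 0.0162 and 0.00422, edgeR), in a comparison where 6193 genes then passed. Zebrafish gene counts per ERCC count, as log2, averaged 5.06 ± 0.83 in JQ1 day 1 and 6.65 ± 0.16 in DMSO day 1 libraries (SD, n = 3 each), and the 2 groups did not overlap in it.

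Scaling by the 8 T-cell markers or by the transgenes, which was chosen after the values were seen, moved the median of all genes up at day 3. *cps1* was then at −5.40 with T-cell markers and −4.20 with the transgenes. *cad*, *dhodh* and *umps* came to −0.028, −0.44 and −0.014 with T-cell markers, and to 1.14, 0.87 and 1.30 with the transgenes. The median of all genes came to 1.27 and 2.49. A scale multiplies all counts of a library by the same factor, so log2 fold changes move largely together. The distances of the 4 genes to each other and to that median changed little. All 4 stayed below it on each scale, and nothing is read from this. The arginases moved up further than the median. *arg1* went from 3.83 with TMM to 5.67 with T-cell markers and 7.25 with the transgenes, and *arg2* from 0.55 to 2.06 and 3.65. JQ1 day 3 replicate 2 had the most *arg1* and *arg2* counts of its group (664 and 391). It also had the fewest transgene and T-cell marker counts (10045 and 20396). The part of that library in these shifts was not tested.

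**Figure D3:**
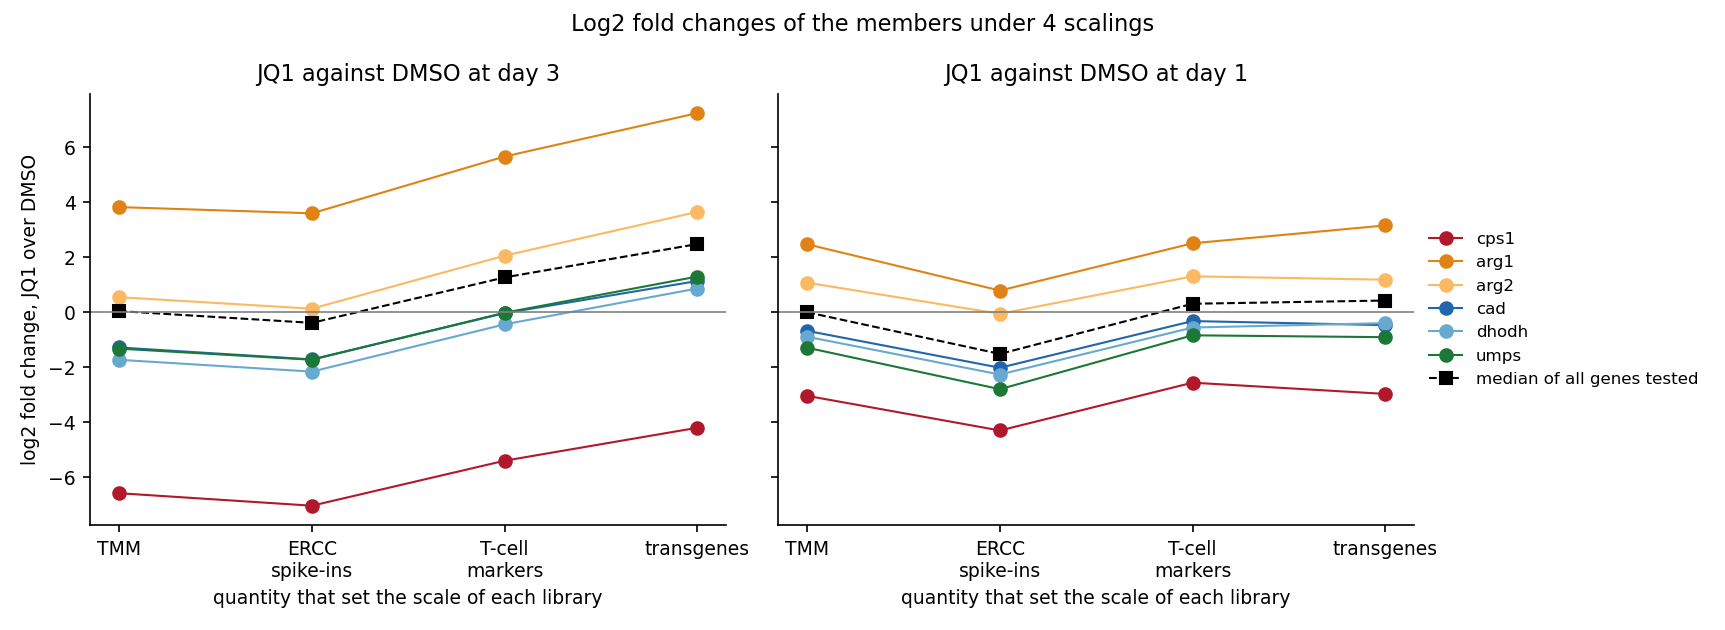
Log2 fold change of JQ1 over DMSO for the 6 tested members (circles) and the median of all genes tested (black squares) when libraries were scaled by TMM, ERCC spike-ins, T-cell markers or the transgenes, at day 3 (left) and day 1 (right). *cps1* is lowest on every scale, and *cad*, *dhodh* and *umps* follow the median of all genes from below, crossing 0 at day 3 with the transgenes (1.14, 0.87 and 1.30).

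Proliferation markers were also lower with JQ1 at day 3. The 13 genes of that list (among them *mki67*, *pcna* and the *mcm* genes of the replicative helicase) summed to 1240, 1502 and 1232 CPM in JQ1 day 3 libraries, against 3890, 6601 and 4294 CPM in DMSO day 3 libraries, and 11 of 13 passed the threshold, all lower, their median difference being −1.89 (log2). At day 1 they summed to 2426, 1234 and 2473 CPM in JQ1 libraries, against 4377, 2802 and 1733 CPM in DMSO libraries. None of the 13 passed in edgeR, at an unadjusted p below 0.05 or in DESeq2 with gene size factors. With the ERCC scale 7 of the 13 were called lower at day 1, where 5945 of all genes were. Their median was then −1.81, against −1.51 for all genes. DMSO day 1 replicate 3, which had the least *cps1*, *cad*, *dhodh* and *umps* of the DMSO libraries, also had the least proliferation marker RNA. The same library had the least T-cell marker RNA (4126 CPM) and the most macrophage marker RNA (1518 CPM) of the DMSO libraries. Among the DMSO day 3 libraries the order was not shared by all 4 genes, since replicate 2 had the most proliferation marker RNA and the most *cps1* and *umps*, but the least *dhodh*, and *cad* was highest in replicate 3. The part of cell division or of cell make-up in these levels was not tested. Liver markers summed to 25.3, 24.8 and 307 CPM in JQ1 day 3 libraries, against 5.15, 16.7 and 19.5 CPM in DMSO day 3 libraries, and each of the 7 liver genes tested had a log2 fold change above 0, with none past the threshold in edgeR and 5 at an unadjusted p below 0.05.

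The genes whose pattern over the 12 libraries was most like that of *cps1* were *dcps*, *cse1l*, *med4*, *mre11* and *nfyc*, with Pearson correlations of 0.961, 0.950, 0.947, 0.943 and 0.942 of log2 CPM among 10549 genes compared. They encode a scavenger enzyme for mRNA caps, a nuclear export receptor, a Mediator subunit, a DNA double-strand break nuclease and a subunit of the CCAAT-binding factor NF-Y. All are described over the same libraries, which differ in treatment, day and cell make-up. The sizes differed, since *dcps* had 14.6 CPM in JQ1 day 3 and 30.7 CPM in DMSO day 3 cells, and *mre11* had 10.3 CPM in JQ1 day 3 and 25.1 CPM in DMSO day 3 cells. Of the members, *umps* was the most like *cps1*, with a correlation of 0.893 and rank 115, followed by *cad* (0.815, rank 704) and *dhodh* (0.760, rank 1255). The correlations of *arg2* and *arg1* with *cps1* were −0.30 and −0.69.

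The neighbouring steps of the urea cycle held no gene past the threshold on either day. The list comprised *asl*, which follows *ass1*, the ornithine carrier genes *slc25a15* and the aspartate carrier genes *slc25a12* and *slc25a13*, and 4 of its 5 genes could be tested. *asl* had a mean of 8.06 ± 3.28 CPM in JQ1 day 3 and 4.56 ± 0.92 CPM in DMSO day 3 cells (SD, n = 3 each), which is a log2 difference of 0.87. The 2 copies of *slc25a15* had log2 fold changes of opposite sign at day 3, at 2.43 for ENSDARG00000063539 and −1.11 for ENSDARG00000062271. At an unadjusted p below 0.05 there was 1 gene at day 3 (lower) and none at day 1, and DESeq2 with gene size factors called 0 on both days. The median of the list at day 3 was 0.34, against 0.047 for all genes tested, and with the ERCC scale it was −0.12, against −0.38. That scale called 1 gene of the list lower at day 3 and 2 lower at day 1.

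Genes that use arginine and ornithine were mixed. At day 3, 4 of 17 genes tested rose and 1 fell, where 15.3% of all genes were called higher and 9.91% lower, and nothing particular to the list is read from these counts. The same shares are the background for the day 3 counts of the lists that follow. The 4 that rose were *gatm*, the first step of creatine synthesis, with a log2 fold change of 4.96 ± 1.1 (SE), *agmat*, a hydrolase named for agmatine, with 3.38 ± 0.53, the *nos2* copy ENSDARG00000026925, an inducible nitric oxide synthase, with 3.28 ± 0.92, and the *sat1* copy ENSDARG00000035652, a polyamine acetyltransferase, with 2.59 ± 0.57. The median of the list was 0.18, and it turned to −0.22 with the ERCC scale. *gatm* had only 3.35 ± 2.64 CPM in JQ1 day 3 cells and 0.0938 ± 0.087 CPM in DMSO day 3 cells (SD, n = 3 each), and without JQ1 day 3 replicate 2 the list had 1 gene past the threshold. *gatm* and *agmat* are also known from kidney tubule and liver, whose markers were higher in the same libraries, and the part of those cells was not tested.

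Genes that make, split or convert glutamine, the nitrogen donor of both carbamoyl phosphate enzymes, numbered 7 among those tested. At day 3, 3 of them rose and none fell, with a median of 0.84, and 1 rose when JQ1 day 3 replicate 2 was left out. The *glul* copy ENSDARG00000099776, a glutamine synthetase gene, had 117 ± 58.3 CPM in JQ1 day 3 and 16.4 ± 2.25 CPM in DMSO day 3 cells (SD, n = 3 each), which is a log2 difference of 2.90 ± 0.39 (SE). The glutamate dehydrogenase genes *glud1b* and *glud1a* rose by 0.99 and 0.98 on the log2 scale. *asns*, which spends glutamine on asparagine, was at −1.08 and did not pass. With the ERCC scale 1 gene of this list was called higher and 1 lower.

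The list of later pyrimidine steps holds genes that carry UMP on to CTP and to the deoxynucleotides of DNA. It also holds genes that recycle or split nucleosides, among them *tk1*, *uck1*, *upp1* and *cda*. Most genes of the list were lower with JQ1 at day 3. Of 22 genes tested, 12 fell and 1 rose, and 19 had a log2 fold change below 0, with a median of −1.42, against 0.047 for all genes tested. The largest falls past the threshold were in *tk1*, thymidine kinase, at −2.69 ± 0.44 (SE), *dut*, the dUTPase, at −2.59 ± 0.27, and *tyms*, thymidylate synthase, at −2.55 ± 0.34. *dut* had 22.8 ± 5.56 CPM in JQ1 day 3 and 143 ± 25.4 CPM in DMSO day 3 cells, and *tyms* had 17.3 ± 5.35 CPM in JQ1 day 3 and 105 ± 34.9 CPM in DMSO day 3 cells (SD, n = 3 each). The gene that rose was the *cda* copy ENSDARG00000111188, a cytidine deaminase that recycles cytidine, at 3.11 ± 0.91. With the T-cell marker scale the median was −0.18 with no gene called lower, and with the transgene scale it was 0.88. Each lay below the median of all genes on that scale (1.27 and 2.49). As for the members, nothing is read from that order, since a scale moves genes largely together. Without JQ1 day 3 replicate 2, 5 genes fell.

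The listed genes of purine synthesis, the other route to nucleotides, showed a like pattern at day 3. Of 14 tested, 7 fell and 1 rose, with a median of −0.92. *atic*, which completes the purine ring, had 24.8 ± 4.12 CPM in JQ1 day 3 and 121 ± 16.7 CPM in DMSO day 3 cells (SD, n = 3 each), which is a log2 difference of −2.23 ± 0.22 (SE), and *pfas* and *gart*, earlier enzymes of the same ring, were at −1.70 ± 0.27 and −1.45 ± 0.29. The gene that rose, *adss1*, an adenylosuccinate synthase known in mammals from muscle, was at 2.91 ± 0.70. Muscle markers summed to 9.06, 127 and 10.9 CPM in JQ1 day 3 libraries, against 2.09, 3.23 and 1.59 CPM in DMSO day 3 libraries, with 2 of the 3 genes tested past the threshold, both higher, and the part of muscle cells in the *adss1* level was not tested. With the T-cell marker scale the median turned to 0.27 and with the transgene scale to 1.50. Both were below the median of all genes on that scale, from which again nothing is read. Without JQ1 day 3 replicate 2, 2 genes fell.

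The genes of pyrimidine breakdown were higher with JQ1 at day 3. Of 3 tested, *upb1* and *dpyd*, the last and the first enzyme of the reductive pathway, rose by 4.87 ± 1.08 and 3.60 ± 0.96 (SE) on the log2 scale at day 3, and *dpys*, the middle one, was at 2.78 ± 0.88 and did not pass. Levels were low, with 3.39 ± 2.48 CPM of *upb1* in JQ1 day 3 and 0.12 ± 0.14 CPM in DMSO day 3 cells (SD, n = 3 each). Without JQ1 day 3 replicate 2 none of the 3 passed in edgeR. These genes are known from liver in mammals, and the part of such cells, whose markers are given above, was not tested.

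At day 1 none of these 6 lists had a gene past the threshold in edgeR. At an unadjusted p below 0.05, 10 of their 67 genes tested in edgeR were higher and 9 lower, where 3536 of all 15813 genes had such a p. DESeq2 with gene size factors, which fitted 76 of their genes, called 5 higher and 7 lower. Of all genes it called 1472 higher and 729 lower. Nothing particular to the lists is read from these counts. The medians were −0.45 for the later pyrimidine steps, with 17 of 22 genes below 0, and −0.68 for purine synthesis, with 11 of 14 below 0, against 0.0040 for all genes tested. The medians of the other lists were 0.30 for the urea cycle neighbours, 0.49 for arginine and ornithine use, 0.67 for glutamine and ammonia and 2.16 for pyrimidine breakdown. The gene of the later pyrimidine list nearest to a call was *nme2b.2*, a nucleoside diphosphate kinase gene, at 2.82 ± 0.47 (SE, adjusted p = 0.0609, edgeR), and that of the purine list was *gart*, at −1.98 ± 0.40 (SE, adjusted p = 0.0645, edgeR). With the ERCC scale, 14 of the 22 later pyrimidine genes and 10 of the 14 purine genes were called lower at day 1, and the medians stood at −1.90 and −2.14, against −1.51 for all genes.

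**Figure D4:**
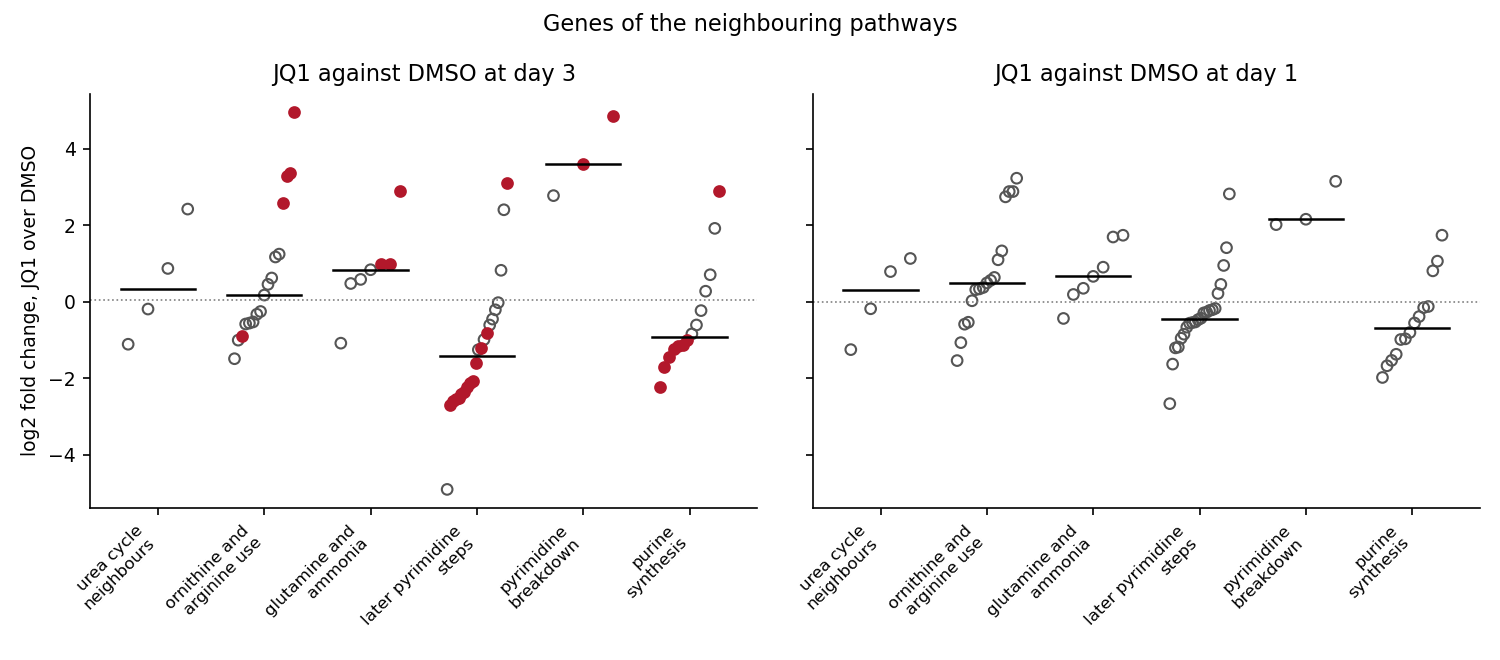
Log2 fold change of JQ1 over DMSO for each tested gene of 6 neighbouring pathway lists at day 3 (left) and day 1 (right). Filled red points passed an adjusted p of 0.05 in edgeR, open points did not, black lines are list medians and the dotted line is the median of all genes tested. At day 3 the later pyrimidine steps (12 lower, 1 higher) and purine synthesis (7 lower, 1 higher) lie mostly below 0, and at day 1 no point is filled.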

How the data were processed

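RNA of mCherry-sorted tumor cells was sequenced as strand-specific 100-bp read pairs after ERCC spike-ins had been added according to cell number. The authors aligned reads to GRCz11 with STAR 2.5.2a and made the deposited counts, whole uniquely mapped reads per gene, with featureCounts. Further deposited tables hold the authors' own DESeq2 fold changes and p-values and were not used. All count columns matched a labelled sample, and libraries were grouped by the labels. Depth, and the precision it gives, stand beside the first levels above, and limits given for 0 counts cover counting error only.

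Gene symbols were matched to 23608 of 25607 gene IDs. The edgeR 4.0.16 quasi-likelihood test (R 4.3.3, filterByExpr, TMM) was run on the counts of the groups compared, with all genes, 3 libraries a group and Benjamini-Hochberg adjustment at 0.05, and was tested on simulated data. Log2 CPM for correlations used a prior count of 2. ERCC counts, T-cell markers and transgenes as scales, library totals, an unfiltered table, DESeq2 1.42.0, a replicate block, 1 fit of all 12 libraries and leaving out each library were tried as alternatives. The members and the gene lists were chosen with earlier results of these data known. All members are described. From each list up to 4 genes past the threshold with the largest changes are named, or the largest changes where fewer passed, and the 5 genes of highest correlation with *cps1* were taken from genes with at least 10 CPM in 1 group. Granulocyte and erythrocyte lists matched too few genes (50% and 66.7%) and were void. No gene lengths of the build were used, so levels of different genes are not compared. With 3 against 3 libraries, an exact two-sided permutation test cannot go below p = 0.1, and none was used.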

Additional observations from a re-analysis of the deposited data

How the results depend on the processing

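At day 3, 4 members were lower and none higher past the threshold. The 4 lower calls stood with ERCC counts, library totals, no filter, both DESeq2 fits and 1 fit of all 12 libraries, and the count was 0 with the replicate block and 1 (*cps1*) with the T-cell marker and the transgene scale. Members called higher came to 1 (*arg1*) in DESeq2 with gene size factors, in DESeq2 with ERCC size factors and with T-cell markers, and to 2 with the transgenes, where *cad*, *dhodh* and *umps* also reversed to 1.14, 0.87 and 1.30. The day 3 log2 fold change of *cps1* ran from −7.05 to −4.20 over these alternatives. Leaving out 1 library gave 0 to 4 members lower, 0 to 1 higher and 0 to 3901 genes in all, with 0 whenever a DMSO library was missing. All genes past the threshold at day 3 numbered 4104, of which 2491 were higher and 1613 lower, against 6707 in DESeq2 with gene size factors, 7783 with ERCC size factors (3128 higher, 4655 lower) and 0 with the replicate block (6096 at an unadjusted p below 0.05). The split was 1837 higher and 3831 lower with ERCC counts in edgeR, 2761 and 864 with library totals, 5168 and 37 with T-cell markers, and 5160 and 5 with the transgenes. The cause of these shifts was not tested.

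At day 1 no member passed, but 4 were lower with ERCC counts in edgeR and 4 with ERCC size factors in DESeq2, where *arg2* reversed to −0.052 and −0.050, and 0 to 1 were lower when 1 library was left out. All genes past the threshold numbered 7, against 6193 with ERCC counts, 4 with library totals, 225 without the filter, 2201 and 7799 in DESeq2 with gene and ERCC size factors, 0 with the replicate block (3118 unadjusted), 891 with all 12 libraries, 0 with T-cell markers (2657 unadjusted), 86 with the transgenes and 0 to 1591 when 1 library was left out.

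For DMSO day 3 against day 1, DESeq2 called 140 genes with gene size factors, with 1 member higher (*cps1*), and 146 with ERCC size factors, against 0 in edgeR and 0 to 4 when 1 library was left out. Leaving out 1 library took *arg2* between −1.20 and 0.51 and *umps* between −0.14 and 0.65. For the difference between the JQ1 effects, 1 gene passed with ERCC counts, 36 and 751 in DESeq2 with gene and ERCC size factors, and 0 to 1 when 1 library was left out, with no member among them in either tool.

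Libraries with the same replicate number did not deviate together, with correlations of −0.08, 0.03 and −0.26 at day 3 and 0.13, −0.13 and −0.07 at day 1, so the numbers were not taken to pair animals. With the replicate block *cps1* was at −6.40 (adjusted p = 0.0650, edgeR) at day 3. Low counts limit *cps1* in JQ1 cells, with 1 to 21 counts in a library, and *otc*, *ass1* and *nags* throughout.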
